A study of Sus scrofa with 9 samples.

Results

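The HOX genes and the mesenchymal transcription factors that carry positional identity were followed in porcine embryonic fibroblasts, cultured connective tissue cells of pig embryos. Members were chosen by gene name: HOXA, HOXB, HOXC or HOXD with a number, TBX, MEIS, PBX, DLX, MSX, PITX, ALX or LHX with a number, SIX2 to SIX6, and PRRX1, PRRX2, TWIST1, TWIST2, FOXF1, FOXF2 and TCF21. Of the 30477 gene IDs measured, 83 carried such a name, 34 of them HOX genes and 49 of the other families. RNA was sequenced from untreated cells (0 h) and from cells given insulin for 48 h or 72 h. Each time had 3 libraries that the submitters describe as biological replicates, and p-values measure the spread between them. All groups share the cell type. The sources used here give no age, breed or body part of the embryos, no number of embryos pooled and no insulin concentration. No untreated culture of 48 h or 72 h was analysed here, so insulin and time in culture cannot be told apart in any comparison with 0 h. In these bulk samples, fewer cells of a type and less RNA per cell cannot be told apart either.

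HOX genes encode homeodomain transcription factors and lie in 4 clusters, in which the order along the chromosome follows the order of expression from head to tail: genes of low paralogue number act anteriorly and genes of high number posteriorly. The combination of HOX genes that a fibroblast keeps in culture is known as a record of the body site from which it came. PBX and MEIS proteins bind DNA together with HOX proteins, while TBX, DLX, MSX, ALX, PITX and SIX2 to SIX6 genes mark limb, flank, head or organ territories, and PRRX, TWIST, FOXF and TCF21 genes mark mesenchyme of limb, dermis and viscera.

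Values are FPKM, which scale the reads of a gene to its length and to the mapped reads of the library, so levels of different genes can be set side by side. FPKM summed to 487858 to 497665 per library at 0 h, 524992 to 563656 at 48 h and 505022 to 525471 at 72 h, and between 10761 and 10833 genes reached an FPKM of 1. The number of reads is unknown. Steps between low values put the relative depth at 1.29 for 48 h replicate 3 and at 0.943 to 1.05 for the others, with 0 h replicate 1 as 1. These ratios are rough, as they rest on 12 to 30 genes per library, and on 20 for 48 h replicate 3. A gene was tested when 3 or more libraries reached 1 FPKM, which kept 11063 genes. Among them were 22 of the 34 HOX genes and 30 of the 49 other members. HOXD3 and TBX4 stayed below 1 FPKM in every 0 h library and passed only through later ones. HOXA3, HOXB5 and HOXB8 also needed later libraries to pass. For these genes the filter favours a rise, and all are among the members called higher against 0 h. Their calls against 0 h were kept in the fit without a filter.

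The fibroblast label was checked against marker genes. All 11 fibroblast markers with a row were tested, and their summed FPKM was 21530 to 22489 at 0 h, 20326 to 20848 at 48 h and 21950 to 22566 at 72 h. PTPRC and CD163 of blood cells and CDH5 of endothelium were listed at 0 in every library. EPCAM and CDH1 of epithelium, KDR and TEK of endothelium, CSF1R of macrophages, RGS5 of pericytes and SOX10 of neural crest and glia did not pass 0.26 FPKM in any library. Other markers below the filter stood higher, at up to 1.41 FPKM in the epithelial list, 0.89 in the mural list and 0.7 in the blood list. PECAM1, the only endothelial marker that passed the filter, was not called in any comparison. Of the skeletal muscle list, MYOD1 reached at most 0.14 FPKM, PAX7 0.2, MYF5 1.18 and MYOG 1.44. ACTC1, a muscle actin, had 12.1 to 22.1 FPKM, and DES, the intermediate filament of muscle that other mesenchymal cells can also make, was at 1440 ± 16 FPKM (mean ± SD, n = 3) at 0 h. Some markers moved with time. The summed FPKM of the mural list was 189 to 192 at 0 h, 112 to 117 at 48 h and 118 to 135 at 72 h, and NOTCH3, MCAM and CSPG4 were called lower at both later times. That of the muscle list, nearly all of it DES, was 1445 to 1476, 879 to 958 and 803 to 1009 at the 3 times. The epithelial list stood at 8.05 to 9.37, 14.2 to 14.9 and 10.9 to 12.2 at the 3 times, with KRT8 as most of it. The blood list stood at 1.54 to 2.29, 3.97 to 5.14 and 3.64 to 5.36, with CD14 as most of it. The neural list stood at 178 to 183, 204 to 251 and 183 to 193, nearly all of it TUBB3 and NES. The cartilage and bone list stood at 11.7 to 14.5, 13.3 to 16.5 and 16.4 to 16.8, and the endothelial list at 0.74 to 1.05, 0.91 to 1.13 and 1.12 to 1.25. The part of these shifts in the results was not tested.

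At 0 h the fibroblasts expressed HOX genes from the middle of the clusters, at low levels. The HOX genes that were tested covered paralogue groups 2 to 10 and none of groups 11, 12 or 13. HOXC8, which patterns the thoracic region in the mouse, was the highest HOX gene at 0 h, with 10.3, 9.11 and 9.59 FPKM at 0 h, 9.69, 8.94 and 9.21 at 48 h, and 9.55, 8.97 and 9.31 at 72 h. It was followed at 0 h by HOXD8 at 6.16 ± 1.2 FPKM, HOXB3 at 5.38 ± 0.491, HOXC5 at 5.1 ± 0.845, HOXA7 at 4.49 ± 0.337, HOXC9 at 4.36 ± 0.535 and HOXA9 at 4.25 ± 0.751 (mean ± SD, n = 3). The 0 h libraries of HOXC8 lay above all those of HOXD8, while HOXD8, HOXB3 and HOXC5 overlapped among themselves. Group 10, which patterns the lumbar region and the proximal limb, was represented by HOXC10 at 2.1 ± 0.183 FPKM and HOXA10 at 1.46 ± 0.439, while HOXD10 had 0.25 to 0.92 FPKM over the 9 libraries.

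The HOX genes of groups 1 and 11 to 13 that had a row stayed below 1 FPKM in every library. Of group 2, HOXA2 did too, while HOXB2 had 2.39 to 5.99 FPKM. HOXB1, HOXB13, HOXC12 and HOXD12 were listed at 0 in every library, and HOXD11 in 8 of the 9 with 0.08 FPKM in the other one. HOXA11 had 0.29 to 0.93 FPKM, HOXC11 0.1 to 0.35, HOXC13 0 to 0.59, HOXD1 0.27 to 0.63 and HOXA2 0.11 to 0.82. HOXA4, HOXA6, HOXA13 and HOXD13 had no row with that name and were not analysed here. With a threshold of 0.5 FPKM in 3 libraries 25 of the 34 HOX genes were counted as present, adding HOXA2, HOXD1 and HOXD10, and with 2 FPKM 20 were.

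**Figure D1:**
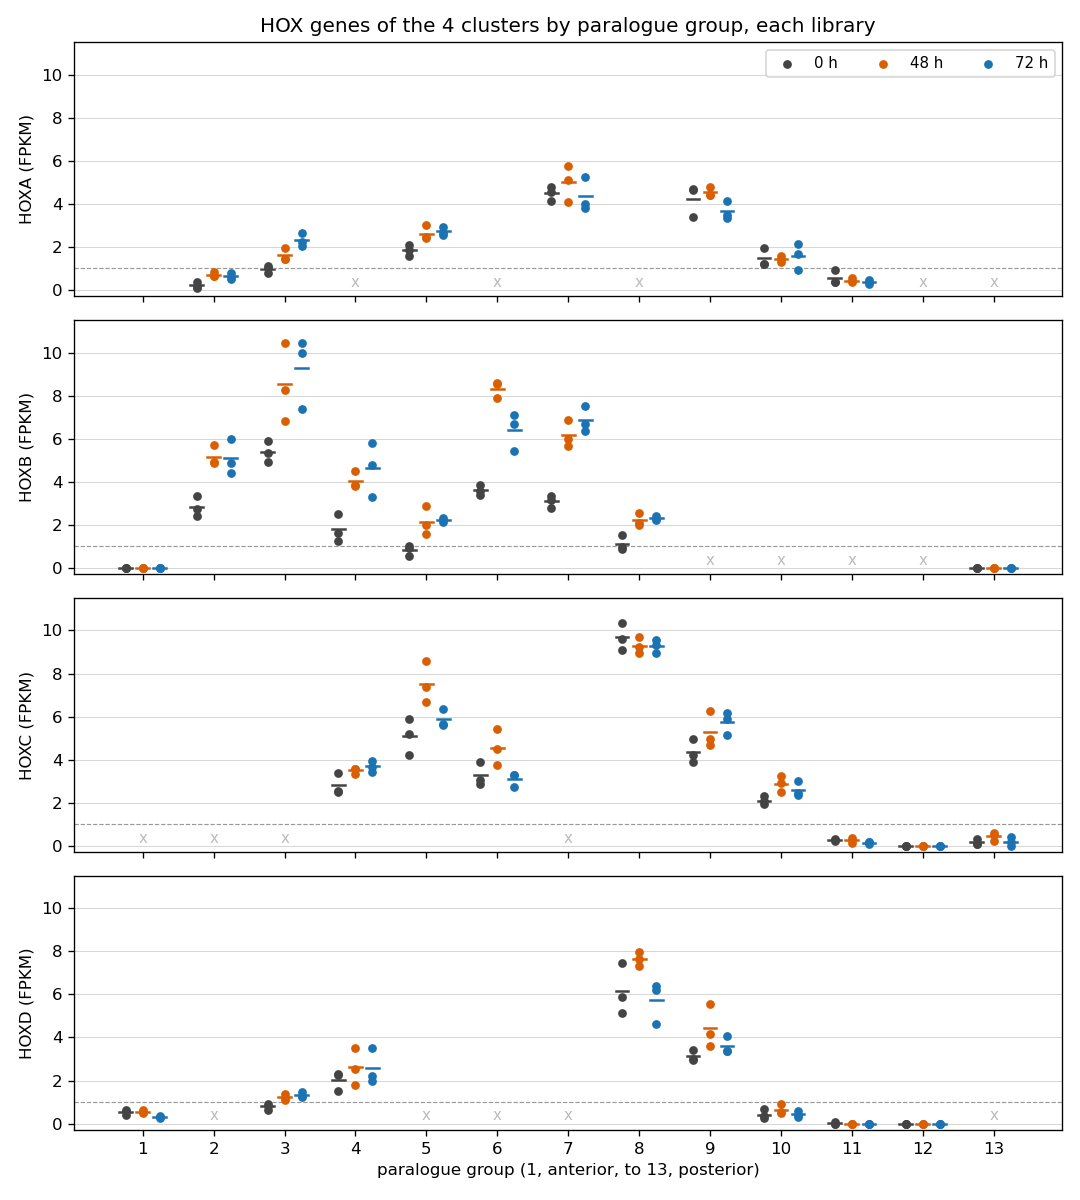
FPKM of HOX genes in each of the 9 libraries (points) with the mean of each time (short lines), by cluster (panels) and paralogue group (x axis); the dashed line is 1 FPKM and a grey x marks a group with no row of that name, which includes genes that mammals lack. HOXC8 is at 9.11 to 10.3 FPKM at 0 h, the 7 tested HOXB genes are higher at 48 h and 72 h than at 0 h, and groups 11 to 13 stay below 1 FPKM.

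Tested members were called higher after insulin more often than the tested genes at large. At 48 h, 30 of 52 members were called higher (57.7%) and 4 lower (7.69%), against 27.6% and 22.4% of all 11063 tested genes (49.9% in either direction). The median log2 change was 0.32 for members and 0.02 for all genes. At 72 h, 27 were called higher (51.9%) and 7 lower (13.5%), against 23.0% and 22.5% of all genes (45.5% in either direction). The medians were 0.24 and -0.01. Calls are from limma on log2(FPKM + 1) with a Benjamini-Hochberg adjusted p below 0.05 over all tested genes. Log2 changes are given ± their standard error, and the added 1 makes them smaller than the FPKM ratio for genes near 1 FPKM. The 48 h and 72 h comparisons share their 0 h libraries. In all, 24 members were higher at both times, 4 were lower at both and 13 were called at neither. Another 5 were called higher at 48 h alone, 3 higher and 2 lower at 72 h alone, and 1 higher at 48 h and lower at 72 h. Calls at 1 time alone do not show a difference between 48 h and 72 h. By limma's F-test 37 of 52 members differed among the 3 times, against 60.6% of all genes. The libraries of 0 h and 48 h did not overlap for 32 members higher and 5 lower at 48 h (32.4% and 27.6% of all genes), and those of 0 h and 72 h for 28 and 6 (28.1% and 30.4%). When all libraries were scaled to the same FPKM sum, the median change of all genes at 48 h shifted by -0.12. The split of all calls at 48 h then went from 3048 higher and 2476 lower to 1959 and 3691, and that of the members from 30 and 4 to 22 and 6.

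**Figure D2:**
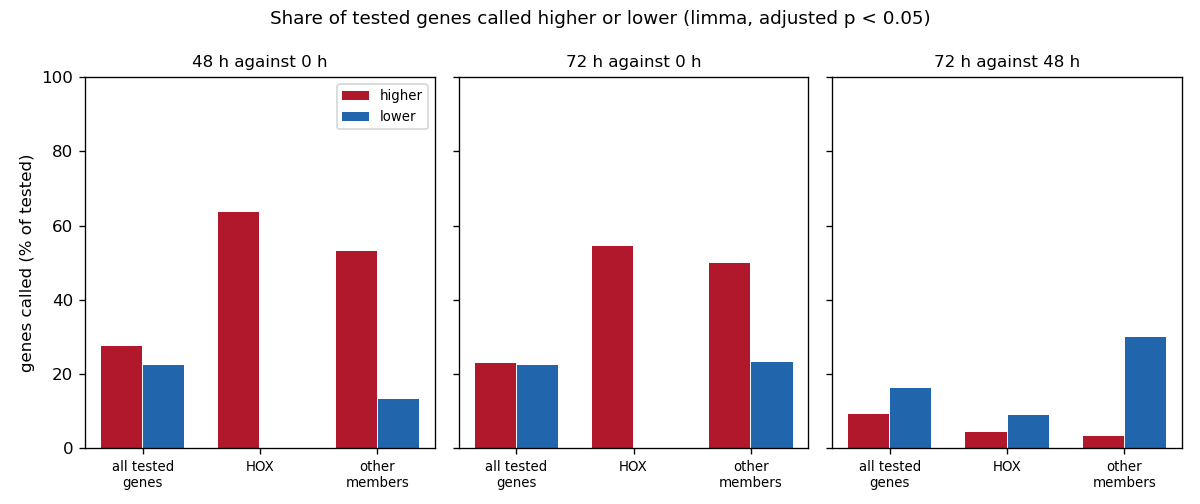
Share of tested genes (y axis, %) called higher (red) or lower (blue) in each comparison for all 11063 tested genes, the 22 tested HOX genes and the 30 other tested members. The HOX genes show 63.6% higher and 0% lower at 48 h, where 14 of 22 are called (9 at equal FPKM sums), and 54.5% and 0% at 72 h. All tested genes show 27.6% and 22.4% at 48 h, and 23.0% and 22.5% at 72 h.

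Among the HOX genes 14 of 22 rose at 48 h and 12 at 72 h, and 10 of these rose at both. Of all tested genes 27.6% were called higher at 48 h and 23.0% at 72 h. At equal FPKM sums 9 were called higher at 48 h and 11 at 72 h. None was called lower at either time by limma, and none was lower at an unadjusted p below 0.05 either, where 15 were higher at 48 h and 12 at 72 h. The rises were spread unevenly over the clusters: 7 of 7 HOXB genes rose at both times, while at 48 h and 72 h 2 and 2 of 5 HOXA genes, 3 and 2 of 6 HOXC genes and 2 and 1 of 4 HOXD genes did. At 72 h the HOXD share (25.0%) was near that of all tested genes, and the HOXC share was 33.3%. The difference between clusters was not tested.

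The HOXB genes from HOXB2 to HOXB8, which lie within 82.9 kb of pig chromosome 12 (24796786 to 24879706, Sscrofa11.1), were all lower at 0 h than later. The summed FPKM of the cluster was 18.6 ± 0.347 at 0 h (SD, n = 3), 36.6 ± 0.885 at 48 h and 36.8 ± 4.73 at 72 h. The HOXA sum was 14.2 ± 1.61, 16.8 ± 1.18 and 15.9 ± 1.55 at the 3 times, the HOXC sum 27.8 ± 2.17, 33.7 ± 3.09 and 30.6 ± 0.365, and the HOXD sum 13.1 ± 1.45, 17.1 ± 2.36 and 14 ± 0.335. HOXB6, which marks lateral plate mesoderm in the mouse, had 3.87, 3.38 and 3.56 FPKM at 0 h, 7.88, 8.58 and 8.53 at 48 h, and 6.66, 7.1 and 5.45 at 72 h. The 0 h libraries lay below all others, with a log2 change of 1.02 ± 0.09 at 48 h (adjusted p = 1.43e-05) and 0.68 ± 0.09 at 72 h (1.54e-04). HOXB7 had 3.34, 3.16 and 2.77 FPKM at 0 h, 6.88, 5.67 and 5.97 at 48 h, and 7.51, 6.68 and 6.36 at 72 h. It rose by 0.81 ± 0.09 (adjusted p = 7.08e-05) and 0.94 ± 0.09 (1.45e-05), again without overlap with 0 h.

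HOXB4, known for promoting the expansion of blood stem cells, had 1.27, 2.5 and 1.64 FPKM at 0 h, 3.78, 3.87 and 4.49 at 48 h, and 5.81, 4.8 and 3.3 at 72 h. It rose by 0.87 ± 0.18 and 1.01 ± 0.18 (adjusted p = 0.00275 and 0.00104), with 0 h replicate 2 above the other 0 h libraries and below all later ones. HOXB5, which acts in the enteric nervous system, had 0.92, 0.53 and 1.03 FPKM at 0 h, 2.87, 1.97 and 1.58 at 48 h, and 2.15, 2.22 and 2.3 at 72 h. It stood near 1 FPKM at 0 h and rose by 0.77 ± 0.15 and 0.83 ± 0.15 (adjusted p = 0.00185 and 0.00107).

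HOXB3, a hindbrain and pharyngeal gene and the highest of the cluster, had 5.89, 4.91 and 5.35 FPKM at 0 h, 6.82, 10.5 and 8.28 at 48 h, and 9.99, 10.5 and 7.37 at 72 h. Its changes were 0.56 ± 0.15 and 0.68 ± 0.15 (adjusted p = 0.00976 and 0.00360), and its later libraries were more scattered than those of 0 h. HOXB2, which patterns the hindbrain, had 2.75, 3.32 and 2.39 FPKM at 0 h, 4.92, 4.85 and 5.71 at 48 h, and 5.99, 4.86 and 4.42 at 72 h, and HOXB8 had 0.89, 0.95 and 1.52 FPKM at 0 h, 2.55, 2.07 and 1.99 at 48 h, and 2.29, 2.39 and 2.22 at 72 h. HOXB2 rose by 0.69 ± 0.12 and 0.67 ± 0.12 (adjusted p = 8.50e-04 and 8.89e-04) and HOXB8 by 0.60 ± 0.12 and 0.65 ± 0.12 (0.00200 and 0.00116). For each of the 7 genes the libraries of 0 h overlapped with neither those of 48 h nor those of 72 h. Of all tested genes 32.4% were higher without overlap at 48 h and 28.1% at 72 h. For HOXB5 and HOXB8, which needed later libraries to pass the filter, the filter favours such a separation. The 14 calls of the 7 genes against 0 h were kept without each library in turn and in every other setting in which the gene was tested. HOXB3, HOXB5 and HOXB6 each overlap a long non-coding RNA gene of the RefSeq annotation. Whether strand was used in counting is not known, so reads of overlapping genes cannot be told apart.

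In the HOXA cluster (chromosome 18, HOXA3 to HOXA10 at 45393525 to 45467803) HOXA3 and HOXA5 rose at both times. HOXA3, needed for the thymus and parathyroid in the mouse, had 0.77, 1.03 and 1.11 FPKM at 0 h, 1.43, 1.97 and 1.43 at 48 h, and 2.25, 2.66 and 2.04 at 72 h, and rose by 0.40 ± 0.12 (adjusted p = 0.0148) and 0.75 ± 0.12 (3.76e-04). HOXA5, which acts in lung development, went from 1.84 ± 0.252 FPKM to 2.62 ± 0.341 and 2.72 ± 0.2, by 0.35 ± 0.10 and 0.39 ± 0.10 (adjusted p = 0.0143 and 0.00817). The 48 h call of HOXA3 was lost without 0 h replicate 1 (0.33) or 48 h replicate 2 (0.31). That of HOXA5 was lost without 0 h replicate 2 (0.28) or 48 h replicate 2 (0.27) and at equal FPKM sums (0.25). The annotated span of HOXA3 overlaps those of HOXA4, HOXA5 and HOXA6, so its reads are uncertain to that extent.

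The other tested HOXA genes, HOXA7, HOXA9 and HOXA10, were not called at either time. HOXA7 stood at 4.49 ± 0.337, 5 ± 0.858 and 4.35 ± 0.774 FPKM at 0 h, 48 h and 72 h, HOXA9, a gene of blood progenitors, at 4.25 ± 0.751, 4.54 ± 0.22 and 3.65 ± 0.403, and HOXA10, which patterns the uterus, at 1.46 ± 0.439, 1.45 ± 0.14 and 1.57 ± 0.615. Their unadjusted 95% intervals at 48 h were -0.16 to 0.40, -0.16 to 0.33 and -0.38 to 0.39 on the log2 scale, and at 72 h -0.32 to 0.23, -0.41 to 0.08 and -0.34 to 0.43. HOXA10 was scattered within a time, with 1.21, 1.97 and 1.21 FPKM at 0 h and 1.66, 2.13 and 0.91 at 72 h.

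In the HOXC cluster (chromosome 5, HOXC4 to HOXC10 at 19197810 to 19268267) HOXC8, the highest HOX gene, was not called. Its log2 changes were -0.05 ± 0.07 and -0.05 ± 0.07, with 95% intervals of -0.20 to 0.10 and -0.20 to 0.10. HOXC5 had 5.89, 4.21 and 5.2 FPKM at 0 h, 8.59, 7.35 and 6.66 at 48 h, and 5.65, 6.37 and 5.61 at 72 h, and rose at 48 h by 0.49 ± 0.11 (adjusted p = 0.00535), with 0.18 ± 0.11 at 72 h (0.224). HOXC6, a gene of the brachial and thoracic region, had 3.06, 2.88 and 3.87 FPKM at 0 h, 5.4, 3.73 and 4.48 at 48 h, and 3.3, 2.72 and 3.3 at 72 h. It was higher at 48 h by 0.37 ± 0.13 (adjusted p = 0.0306) and stood at -0.05 ± 0.13 at 72 h.

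HOXC10 rose at 48 h from 2.1 ± 0.183 to 2.88 ± 0.373 FPKM, by 0.32 ± 0.10 (adjusted p = 0.0245), and was at 0.21 ± 0.10 at 72 h (0.116). HOXC4 and HOXC9, the latter a gene of thoracic motor neurons, were called at 72 h, at 0.30 ± 0.10 and 0.33 ± 0.11 (adjusted p = 0.0278 and 0.0321), with 0.24 and 0.23 at 48 h (0.0605 and 0.110). These calls were sensitive to single libraries. The 72 h call of HOXC4 was lost without 0 h replicate 1 (0.24), 0 h replicate 2 (0.25), 72 h replicate 1 (0.26) or 72 h replicate 3 (0.30), and that of HOXC9 without 0 h replicate 2 (0.27), 0 h replicate 3 (0.31), 72 h replicate 1 (0.31) or 72 h replicate 2 (0.28). The 48 h call of HOXC6 was lost without 0 h replicate 1 (0.34), 0 h replicate 2 (0.31), 48 h replicate 1 (0.26) or 48 h replicate 3 (0.37), and that of HOXC10 without 0 h replicate 1 (0.28), 0 h replicate 2 (0.31), 48 h replicate 1 (0.26) or 48 h replicate 2 (0.31). HOXC4, HOXC6 and HOXC10 also lost these calls at equal FPKM sums (0.26, 0.26 and 0.22). HOXC6 overlaps a long non-coding RNA gene.

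In the HOXD cluster (chromosome 15, HOXD3 to HOXD9 at 81910415 to 81974893) HOXD3 rose at both times, from 0.8 ± 0.154 to 1.22 ± 0.153 and 1.32 ± 0.11 FPKM (0.31 ± 0.10 and 0.37 ± 0.10, adjusted p = 0.0243 and 0.0103). Its 48 h call was lost without 0 h replicate 1 (0.24) or 48 h replicate 3 (0.25). All 0 h libraries of HOXD3 were below 1 FPKM (0.63 to 0.93), so it passed the filter only through later ones. HOXD9, which acts in the limb, had 3.4, 3 and 2.97 FPKM at 0 h, 5.57, 4.18 and 3.6 at 48 h, and 4.07, 3.36 and 3.37 at 72 h, and was called at 48 h at 0.39 ± 0.12 (adjusted p = 0.0246). That call was lost without 0 h replicate 2 (0.37), 0 h replicate 3 (0.36) or 48 h replicate 1 (0.25). At equal FPKM sums HOXD3 and HOXD9 were not called at 48 h (0.24 and 0.28). HOXD8 stood at 6.16 ± 1.2, 7.64 ± 0.32 and 5.75 ± 0.967 FPKM and HOXD4 at 2.03 ± 0.442, 2.62 ± 0.869 and 2.56 ± 0.81, with neither called at either time. The 95% intervals of HOXD8 were -0.00 to 0.57 at 48 h and -0.37 to 0.20 at 72 h, and those of HOXD4 -0.19 to 0.67 and -0.21 to 0.65. The annotated span of HOXD9 overlaps those of HOXD10 and HOXD11 in the RefSeq table.

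The order of the HOX genes by level was partly kept. HOXC8 ranked 1st of the 22 tested HOX genes by mean FPKM at 0 h and 48 h, and HOXD3 ranked last at every time. At 72 h HOXC8 and HOXB3 were level, at 9.28 ± 0.291 and 9.27 ± 1.67 FPKM, and 2 of the 3 HOXB3 libraries lay above every HOXC8 library; at 48 h, too, 1 HOXB3 library did. HOXB7 moved from rank 11 at 0 h to 6 at 48 h and 3 at 72 h, HOXB4 from 17 to 13 and 9, and HOXB6 from 8 to 3 and 4, while HOXA9 moved from 7 to 11 and 12 and HOXA7 from 5 to 9 and 10. Across the 22 genes, Pearson correlations of log2 values between libraries were 0.907 to 0.969 within a time, 0.825 to 0.901 between 0 h and 48 h, 0.748 to 0.882 between 0 h and 72 h, and 0.846 to 0.958 between 48 h and 72 h. These describe genes within libraries that share depth and gene lengths, and genes are not independent replicates. By paralogue number, 10 of 12 tested genes of groups 2 to 6 and 4 of 10 of groups 7 to 10 rose at 48 h, and 9 of 12 and 3 of 10 at 72 h, with medians of 0.45 and 0.26 at 48 h and 0.53 and 0.10 at 72 h. The HOXB genes hold 5 of those 12 and 2 of those 10. HOXA3, HOXB5 and HOXD3 among the 12 and HOXB8 among the 10 needed later libraries to pass the filter, which favours a rise. Of all tested genes 27.6% were called higher at 48 h and 23.0% at 72 h. The difference between low and high paralogue numbers was not tested.

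**Figure D3:**
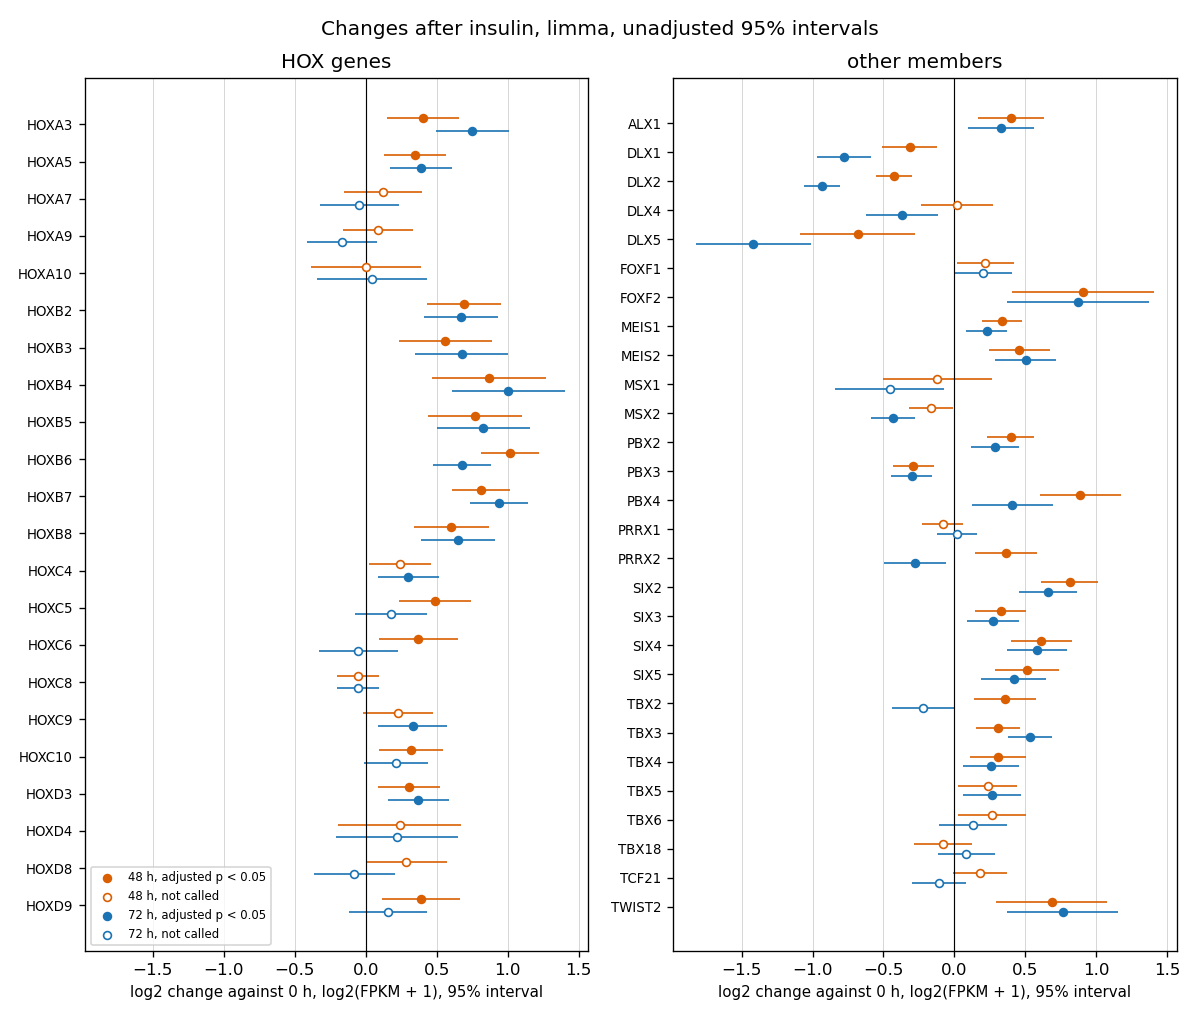
Log2 change (x axis, log2(FPKM + 1), limma) of tested members at 48 h (orange) and 72 h (blue) against 0 h with unadjusted 95% intervals; filled points passed an adjusted p of 0.05. HOX genes are on the left, where the 7 HOXB genes lie between 0.56 and 1.02 at 48 h and HOXC8 lies at -0.05 at both times; DLX5 at 72 h (-1.42) is the lowest value on the right.

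The partners of HOX proteins moved in both directions. MEIS1, a TALE homeodomain cofactor, had 13.7, 13.1 and 13.8 FPKM at 0 h, 18.7, 16.7 and 16.8 at 48 h, and 15.4, 16 and 16.6 at 72 h. It rose by 0.33 ± 0.06 and 0.23 ± 0.06 (adjusted p = 0.00184 and 0.0151), and the 72 h call was lost without 0 h replicate 2 (0.20). MEIS2 had 4.99, 4.7 and 4.6 FPKM at 0 h, 6.68, 7.11 and 6.96 at 48 h, and 6.12, 8.5 and 7.05 at 72 h, and rose by 0.46 ± 0.10 and 0.50 ± 0.10 (adjusted p = 0.00317 and 0.00172). Both MEIS genes were thus above 0 h in every later library.

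PBX2 had 15.5, 14.4 and 17.3 FPKM at 0 h, 21.9, 21.6 and 19.5 at 48 h, and 19.9, 19.6 and 18.7 at 72 h, and rose by 0.40 ± 0.08 and 0.29 ± 0.08 (adjusted p = 0.00176 and 0.00998). PBX4 had 1.75, 2.02 and 2.75 FPKM at 0 h, 5.57, 4.05 and 4.95 at 48 h, and 3.29, 2.88 and 3.38 at 72 h. It rose by 0.89 ± 0.13 (adjusted p = 3.20e-04) and 0.41 ± 0.13 (0.0240), and the 72 h call was lost without 0 h replicate 1 (0.31), 0 h replicate 2 (0.38), 72 h replicate 1 (0.39) or 72 h replicate 3 (0.37). PBX3 went the other way, from 10.1 ± 0.0306 FPKM to 8.08 ± 0.581 and 7.99 ± 0.127, falling by 0.29 and 0.30 on the log2 scale (adjusted p = 0.00451 and 0.00350). MEIS3 had no row with that name and was not analysed here.

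SIX2, SIX3, SIX4 and SIX5 rose at both times. SIX4, which acts with EYA proteins in muscle precursors, had 2.52, 2.87 and 2.56 FPKM at 0 h, 4.13, 4.99 and 4.65 at 48 h, and 4.47, 3.91 and 5.03 at 72 h. It rose by 0.61 ± 0.10 and 0.58 ± 0.10 (adjusted p = 5.12e-04 and 6.14e-04), with every later library above those of 0 h, while SIX6, an eye and pituitary gene, did not pass 0.04 FPKM in any library.

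SIX2, a gene of kidney progenitors, had 2.78, 3.56 and 2.74 FPKM at 0 h, 6.38, 5.81 and 5.96 at 48 h, and 5.26, 5.06 and 5.71 at 72 h. It rose by 0.81 ± 0.09 and 0.66 ± 0.09 (adjusted p = 6.13e-05 and 1.75e-04). SIX3, 57.9 kb away on chromosome 3 and known for its role in the forebrain and eye, had 14.2, 12.1 and 12.9 FPKM at 0 h, 15.6, 17.3 and 17.1 at 48 h, and 17.3, 16.3 and 14.4 at 72 h. It stood above SIX2 in every library and rose by 0.33 ± 0.08 and 0.27 ± 0.08 (adjusted p = 0.00807 and 0.0209). Neither call was kept at equal FPKM sums (0.20 and 0.22), and the 72 h call was lost without 0 h replicate 2 (0.22), 0 h replicate 3 (0.26), 72 h replicate 1 (0.22) or 72 h replicate 2 (0.26). The annotated span of SIX3 shares 1302 bases with that of another protein-coding gene, so its reads are uncertain to that extent. SIX5, a neighbour of DMPK in mammals, had 7.85, 7.65 and 7.84 FPKM at 0 h, 13.2, 11.6 and 10 at 48 h, and 10.4, 12.3 and 9.63 at 72 h, with changes of 0.51 ± 0.10 and 0.42 ± 0.10 (adjusted p = 0.00235 and 0.00721). MYOG, a muscle gene, stood at 0.453 ± 0.146, 1.28 ± 0.138 and 1.15 ± 0.0819 FPKM, with MYOD1 at most 0.14. MYOG passed the filter only through later libraries, which favours a rise. The 3 tested genes of the skeletal muscle list did not move together. At 48 h 1 was called higher and 1 lower, and at 72 h 1 higher and 2 lower. Of all tested genes 27.6% were called higher and 22.4% lower at 48 h, and 23.0% and 22.5% at 72 h.

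The tested DLX genes fell, 3 of 4 at 48 h and 4 of 4 at 72 h. Of all tested genes 22.4% and 22.5% were called lower at these times. DLX2, which with DLX1 patterns the jaw and the forebrain, had 28.2, 27.2 and 29.5 FPKM at 0 h, 20.7, 21.2 and 20.4 at 48 h, and 14.4, 14.8 and 13.9 at 72 h. The 3 times did not overlap, with changes of -0.43 ± 0.06 at 48 h and -0.93 ± 0.06 at 72 h (adjusted p = 1.90e-04 and 3.76e-07). DLX1, 8.91 kb from DLX2 on chromosome 15, had 3.05, 2.6 and 2.68 FPKM at 0 h, 2.17, 2.08 and 1.85 at 48 h, and 1.2, 1.09 and 1.31 at 72 h. It changed by -0.32 ± 0.09 and -0.78 ± 0.09 (adjusted p = 0.0121 and 3.75e-05), and the 48 h call was lost without 0 h replicate 1 (-0.26).

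DLX5, a gene of bone-forming cells, had 5.28, 7.2 and 6.92 FPKM at 0 h, 4.93, 2.55 and 3.69 at 48 h, and 2.04, 1.32 and 2.04 at 72 h, and changed by -0.68 ± 0.18 at 48 h and -1.42 ± 0.18 at 72 h (adjusted p = 0.0103 and 1.06e-04). Its neighbour DLX6, 9.62 kb away on chromosome 9, had 0 to 0.19 FPKM. DLX4 was at 1.98 ± 0.101, 2.04 ± 0.43 and 1.31 ± 0.23 FPKM, with 0.02 ± 0.11 at 48 h and -0.37 ± 0.11 at 72 h (adjusted p = 0.0222). The 72 h call was lost without 0 h replicate 1 (-0.35), 0 h replicate 3 (-0.35), 72 h replicate 1 (-0.30) or 72 h replicate 2 (-0.37). DLX3, 16.6 kb from DLX4 on chromosome 12 and below the filter, had 0.69, 0.56 and 0.74 FPKM at 0 h, 0.53, 0.44 and 0.6 at 48 h, and 0.18, 0.05 and 0.21 at 72 h. Without the filter it fell at 72 h by 0.54 (adjusted p = 0.000682), and its 72 h libraries lay below all others.

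Of the MSX genes, targets of BMP signals in limb and skull, MSX2 fell at 72 h. MSX2 had 25.9, 23.6 and 25.7 FPKM at 0 h, 21.8, 22 and 23 at 48 h, and 18.6, 19.7 and 16.8 at 72 h. Its change was -0.16 ± 0.07 at 48 h (adjusted p = 0.0772) and -0.43 ± 0.07 at 72 h (5.50e-04), with every 72 h library below every 0 h library. MSX1 was at 4.06 ± 0.972, 3.66 ± 0.983 and 2.67 ± 0.531 FPKM and was not called, at -0.12 ± 0.17 and -0.46 ± 0.17 (adjusted p = 0.586 and 0.0530).

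Of the 6 tested TBX genes 3 rose at each time, TBX2, TBX3 and TBX4 at 48 h and TBX3, TBX4 and TBX5 at 72 h. Of all tested genes 27.6% were called higher at 48 h and 23.0% at 72 h. TBX2, a T-box repressor of limb, heart and breast, had 19.3, 19.5 and 20.7 FPKM at 0 h, 25.6, 26.6 and 24.8 at 48 h, and 16.3, 20.1 and 14.4 at 72 h. It was higher at 48 h by 0.36 ± 0.10 (adjusted p = 0.0122) and at -0.22 ± 0.10 at 72 h (0.0875), and the 48 h call was lost at equal FPKM sums (0.23). TBX3, its close relative, had 7.03, 6.81 and 6.54 FPKM at 0 h, 8.68, 8.09 and 9.16 at 48 h, and 9.94, 10.1 and 10.9 at 72 h. It rose at both times, by 0.31 ± 0.07 and 0.53 ± 0.07 (adjusted p = 0.00447 and 1.17e-04), with the 48 h call lost at equal FPKM sums (0.18).

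TBX5 marks the forelimb and the heart and TBX4 the hindlimb and the lung. TBX5 was the higher of the pair, at 4.37 ± 0.278, 5.31 ± 0.206 and 5.48 ± 0.775 FPKM against 0.897 ± 0.101, 1.35 ± 0.0551 and 1.27 ± 0.157 for TBX4, without overlap in any library. TBX4 was called at both times, at 0.31 ± 0.09 and 0.26 ± 0.09 (adjusted p = 0.0151 and 0.0341), and TBX5 at 72 h, at 0.27 ± 0.09 (0.0370). TBX4 lost its 48 h call without 0 h replicate 3 (0.27) and its 72 h call without 0 h replicate 2 (0.27), 0 h replicate 3 (0.22), 72 h replicate 1 (0.21) or 72 h replicate 2 (0.28). TBX5 lost its call without 0 h replicate 1 (0.29), 0 h replicate 2 (0.22), 0 h replicate 3 (0.28), 48 h replicate 2 (0.27), 72 h replicate 1 (0.18) or 72 h replicate 2 (0.26). At equal FPKM sums the 72 h calls of TBX4 (0.23) and TBX5 (0.22) were lost too. TBX4 had 0.79 to 0.99 FPKM at 0 h and passed the filter only through later libraries. TBX18, a gene of the epicardium and ureter, stood at 4.3 ± 0.381, 4.02 ± 0.461 and 4.61 ± 0.271 FPKM and TBX6, a gene of presomitic mesoderm, at 2.79 ± 0.532, 3.54 ± 0.397 and 3.13 ± 0.203, and neither was called. The 95% intervals of TBX18 were -0.28 to 0.12 and -0.12 to 0.29, and those of TBX6 0.03 to 0.51 and -0.11 to 0.37. TBX15 had no row with that name and was not analysed here.

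PRRX1 and PRRX2 were the most abundant members. PRRX1, a homeobox gene of limb and face mesenchyme, had 171, 174 and 173 FPKM at 0 h, 149.6, 163 and 179 at 48 h, and 176, 172 and 178 at 72 h. The 3 times overlapped, and the changes were -0.08 ± 0.06 and 0.02 ± 0.06, with 95% intervals of -0.23 to 0.06 and -0.12 to 0.16. PRRX2 had 207, 211 and 192 FPKM at 0 h, 277, 269.6 and 242 at 48 h, and 171, 192 and 142 at 72 h. It was the only member called in opposite directions at the 2 times, higher at 48 h by 0.37 ± 0.10 (adjusted p = 0.0110) and lower at 72 h at -0.28 ± 0.10 (0.0398). The 48 h call was lost under quantile normalization (0.19). The 72 h call was lost without 0 h replicate 1 (-0.27), 0 h replicate 2 (-0.25), 0 h replicate 3 (-0.32), 48 h replicate 2 (-0.28), 72 h replicate 1 (-0.29) or 72 h replicate 3 (-0.16), and also without a filter or without a trend in the prior variance (both -0.28).

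TWIST2, a bHLH factor of the dermis, had 13.3, 21.1 and 13.2 FPKM at 0 h, 23.8, 23.1 and 30.2 at 48 h, and 25.3, 32.8 and 23.7 at 72 h. It rose by 0.68 ± 0.18 and 0.76 ± 0.18 (adjusted p = 0.00884 and 0.00497). The library of 0 h replicate 2 stood apart from the other 0 h libraries, and without it the changes were 0.89 and 0.97. FOXF2, a gene of gut and palate mesenchyme, had 1.03, 2.11 and 1.07 FPKM at 0 h, 2.53, 3.32 and 4.62 at 48 h, and 2.75, 4.82 and 2.68 at 72 h. Here too 0 h replicate 2 stood above the other 0 h libraries. The rises of 0.90 ± 0.23 and 0.87 ± 0.23 (adjusted p = 0.00754 and 0.00926) were 1.10 and 1.07 without it. Its relative FOXF1, of lung and gut mesenchyme, had 13.7, 12.6 and 13 FPKM at 0 h, 15, 16.3 and 14.9 at 48 h, and 15.2, 17.6 and 13.2 at 72 h, and was not called, at 0.22 ± 0.09 and 0.20 ± 0.09 (adjusted p = 0.0691 and 0.0960). The annotated span of FOXF1 shares 14448 bases with that of MTHFSD, a protein-coding gene. TWIST1 had no row with that name and was not analysed here.

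TCF21, a bHLH factor of epicardium, lung and kidney mesenchyme, stood at 2.95 ± 0.137, 3.49 ± 0.195 and 2.67 ± 0.336 FPKM and was not called against 0 h, at 0.18 ± 0.09 and -0.11 ± 0.09. ALX1, a gene of the frontonasal region, went from 2.34 ± 0.456 to 3.37 ± 0.261 and 3.16 ± 0.249 FPKM, by 0.40 ± 0.11 and 0.33 ± 0.11 (adjusted p = 0.00994 and 0.0269), with the 72 h call lost without 0 h replicate 1 (0.31), 0 h replicate 2 (0.24), 72 h replicate 1 (0.28) or 72 h replicate 2 (0.33).

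**Figure D4:**
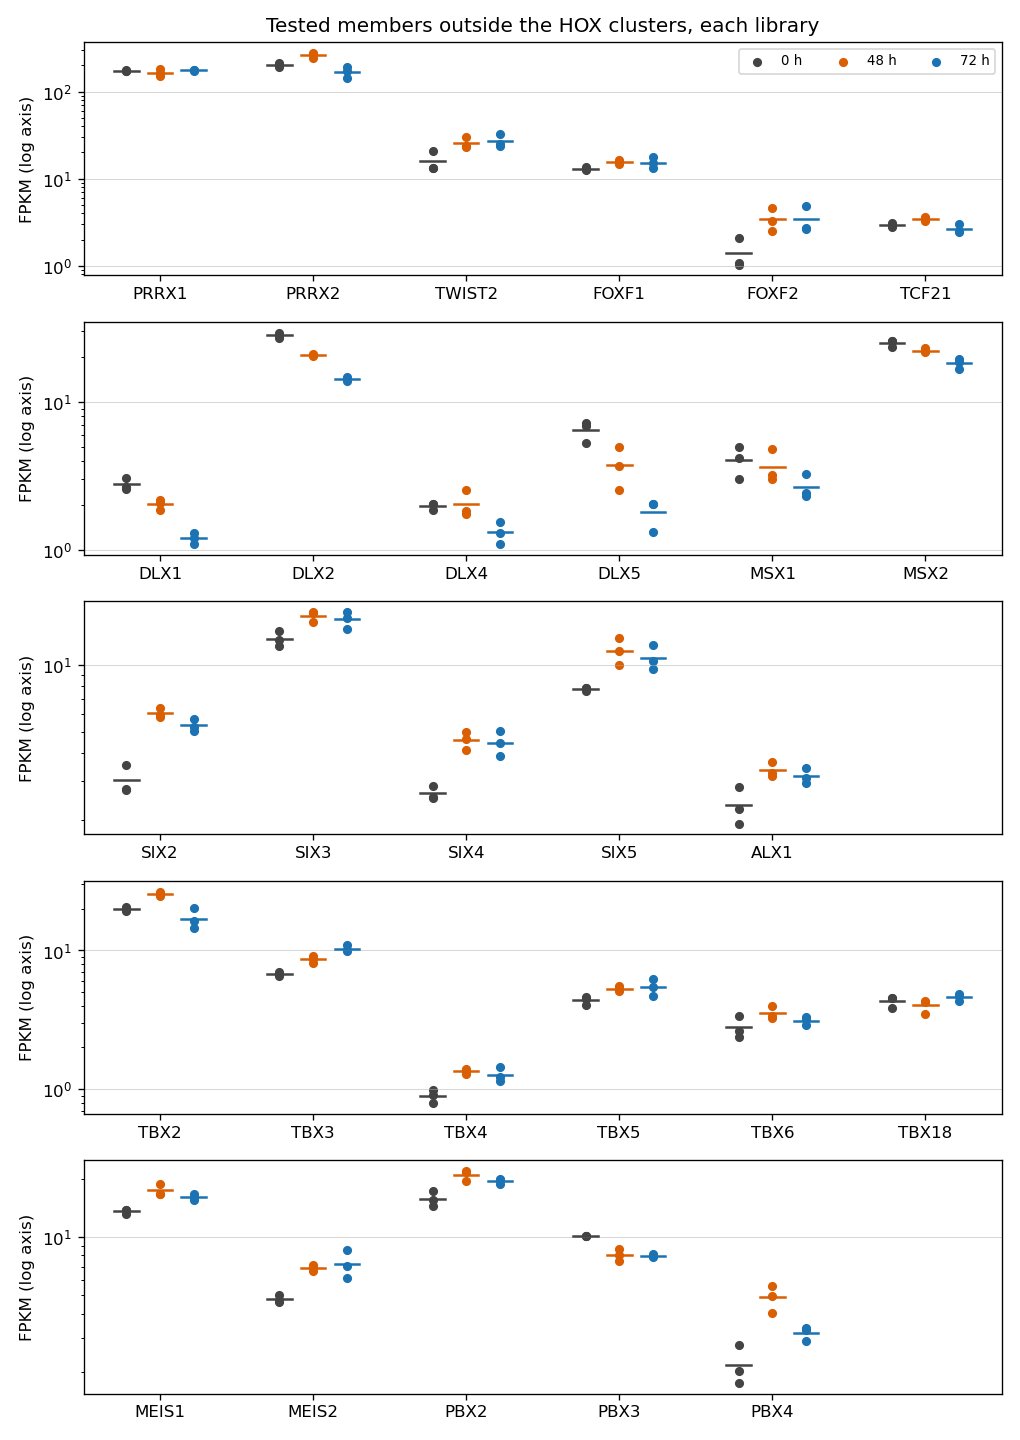
FPKM (log axis) of tested members outside the HOX clusters in each of the 9 libraries (points) with the mean of each time (short lines), in 5 panels with their own axes. DLX2 falls from 27.2 to 29.5 FPKM at 0 h to 13.9 to 14.8 at 72 h without overlap, SIX4 rises from 2.52 to 2.87 at 0 h to 3.91 to 5.03 at 72 h, and PRRX1 lies between 150 and 179 throughout.

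Of the 52 tested members, 2 were called higher and 11 lower at 72 h than at 48 h, against 9.17% and 16.3% of all tested genes (25.4% in either direction). Of the HOX genes, 1 was higher and 2 lower. The libraries did not overlap for 3 members higher and 16 lower (14.9% and 23.9% of all genes). DLX2 and DLX1 fell further between these times, by 0.50 and 0.46 on the log2 scale (adjusted p = 2.04e-04 and 0.00392), as did DLX5 by 0.73 (0.0158) and DLX4 by 0.39 (0.0313). PRRX2 and TBX2, both higher at 48 h, fell by 0.65 and 0.58 (0.00128 and 0.00227). These 4 calls of DLX1, DLX2, PRRX2 and TBX2 were kept without each library in turn and in every other setting, while each of the other 9 was lost in at least 1. HOXB6, HOXC6, MSX2, PBX4 and TCF21 were called lower, by 0.34, 0.42, 0.27, 0.48 and 0.29, and HOXA3 and TBX3 higher, at 0.35 and 0.23. DLX5 lost its call without 48 h replicate 1 (-0.55), HOXB6 without 48 h replicate 2 (-0.32) or 72 h replicate 3 (-0.24) and MSX2 without 48 h replicate 2 (-0.28) or 72 h replicate 3 (-0.21). DLX4 lost its call without 48 h replicate 1 (-0.27), 48 h replicate 2 (-0.43), 72 h replicate 1 (-0.32) or 72 h replicate 2 (-0.39), HOXC6 without 48 h replicate 1 (-0.31), 72 h replicate 1 (-0.46), 72 h replicate 2 (-0.35) or 72 h replicate 3 (-0.46) and PBX4 without 48 h replicate 1 (-0.39), 72 h replicate 1 (-0.50) or 72 h replicate 2 (-0.43). TCF21 lost its call without 48 h replicate 2 (-0.27), 48 h replicate 3 (-0.28), 72 h replicate 1 (-0.25) or 72 h replicate 3 (-0.26). HOXA3 lost its call without any library but 48 h replicate 2 (0.27 to 0.44 over the 9 leave-outs), and TBX3 without any but 48 h replicate 3 (0.19 to 0.27). At equal FPKM sums 3 were called higher and 7 lower.

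The members below the filter were low but some moved in the fit without a filter, in which the 72 h calls of ALX1, DLX4, PBX4, HOXC4, HOXC9, PRRX2 and TBX5 and the 48 h calls of HOXC6, HOXC10 and HOXD9 were lost. HOXA2, a hindbrain gene, had 0.11, 0.38 and 0.15 FPKM at 0 h, 0.63, 0.66 and 0.82 at 48 h, and 0.52, 0.79 and 0.59 at 72 h, at 0.49 and 0.43 against 0 h (adjusted p = 0.00659 and 0.0112), and its later libraries all lay above those of 0 h. TBX20, a heart gene, was lower at both times, by 0.36 and 0.42 (adjusted p = 0.0335 and 0.0178). HOXD1 and LHX2 were lower at 72 h, by 0.24 and 0.17 (adjusted p = 0.0277 and 0.0248), and LHX9 at 48 h, by 0.19 (adjusted p = 0.0475). LHX1, TBX10, TBX19, TBX21 and TBX22 were listed at 0 in every library, and ALX4, LHX4, LHX5, LHX6, LHX8, PITX3 and TBX1 stayed at or below 0.71 FPKM. LHX3 and PITX1 had no row with that name and were not analysed here.

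Genes that write, read or feed the HOX code were followed from lists, whose counts stand against 27.6% higher and 22.4% lower of all tested genes at 48 h and 23.0% and 22.5% at 72 h. In the Polycomb list, whose products keep HOX genes silent, 3 of 24 tested genes rose and 5 fell at 48 h and 2 rose and 7 fell at 72 h. The falls at 48 h were near the share of all genes. The medians were -0.01 and -0.02, against 0.02 and -0.01 over all tested genes. EZH2, the methyltransferase of the complex, went from 22.9 ± 0.91 to 12.1 ± 0.208 and 7.41 ± 0.988 FPKM (-0.87 ± 0.08 and -1.51 ± 0.08, adjusted p = 2.36e-05 and 1.71e-07), and PHF19, its accessory subunit, from 15.7 ± 0.424 to 7.94 ± 0.333 and 4.31 ± 0.0802. In the list of trithorax genes and demethylases, which oppose Polycomb, 1 of 12 rose and 5 fell at 48 h and 2 rose and 4 fell at 72 h (medians -0.18 and -0.11). KMT2A, a methyltransferase that sustains HOX expression, fell at 48 h by 0.57 (adjusted p = 0.00720), with -0.17 ± 0.14 at 72 h, and ASH2L, a shared subunit, fell by 0.50 and 0.59.

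Retinoic acid induces anterior HOX genes in embryos. Of 15 tested genes of that pathway 9 rose and 1 fell at 48 h and 8 rose and 2 fell at 72 h (medians 0.45 and 0.58), against 27.6% and 22.4% of all genes at 48 h and 23.0% and 22.5% at 72 h. DHRS3, which reduces retinal and is itself induced by retinoic acid, went from 4.2 ± 0.596 to 8.55 ± 0.785 and 24.4 ± 1.59 FPKM (0.88 ± 0.10 and 2.29 ± 0.10, adjusted p = 5.00e-05 and 2.62e-08), and CRABP1, which binds retinoic acid in the cytosol, from 15.9 ± 1.61 to 47.3 ± 5.51 and 33.2 ± 5.04. CYP26A1 and CYP26C1, which degrade retinoic acid, and the receptor gene RXRG were below the filter. Of 6 tested other regulators and cofactors 3 rose at 48 h and 1 at 72 h. The largest changes were those of TGIF1 at 0.22 ± 0.06 and 0.51 ± 0.06 and PKNOX1, a TALE cofactor, at 0.23 ± 0.08 and 0.11 ± 0.08, while CDX2 and CDX4 were listed at 0 in every library.

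Of 26 tested genes in a list of other positional factors 8 rose and 3 fell at 48 h and 6 rose and 4 fell at 72 h (medians 0.15 and 0.11). The rises were near the 27.6% and 23.0% of all tested genes called higher at these times. SHOX2, a limb gene, fell from 15.2 ± 0.664 to 10.4 ± 0.857 and 8.38 ± 0.225 FPKM and GATA2 from 6.97 ± 0.381 to 5.26 ± 0.517 and 3.24 ± 0.346. EN2, EMX1, OTX2, IRX6 and SHH were listed at 0 in every library. Of 20 tested genes in a list of mesenchymal factors 7 rose and 4 fell at 48 h and 10 rose and 1 fell at 72 h (medians 0.11 and 0.20). The counts at 48 h were near the 27.6% and 22.4% of all genes. SOX9, a cartilage factor, went from 1.41 ± 0.0493 to 3.67 ± 0.235 and 3.03 ± 0.401 FPKM. SCX, a tendon factor, went from 3.41 ± 3.66 to 5.87 ± 3.29 and 9.24 ± 1.91 FPKM and was called higher at 72 h (adjusted p = 0.0254).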

How the data were processed

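Groups and replicate numbers came from the submitters' titles. Libraries were depleted of ribosomal RNA and built with a NEBNext Ultra RNA kit, per the labels' protocols. The authors deposited 1 FPKM value per gene and library with 2 decimals, per the file headers; RSEM 1.2.28, featureCounts 2.0.2, HISAT2 2.1.0, DESeq2 and the build Sscrofa11.1 appear in the submitters' processing notes, with no role or order. FPKM are scaled within a library, so a rise of abundant transcripts lowers all others. Depth is unknown, so the spread between 3 libraries sets the precision (median standard error 0.088 on the log2 scale).

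Symbols were matched for 14864 of 30477 IDs. Coordinates came from RefSeq for Sscrofa11.1, by symbol, for 81 of 83 members. The spans of 25 members overlap another annotated gene, that of PRRX1 a long non-coding RNA gene over 25534 bases. Genes that reached 1 FPKM in 3 or more libraries were fitted on the log2(FPKM + 1) scale with limma 3.58.1 under R 4.3.3. The model had a term for time, a trend in the prior variance, two-sided contrasts and Benjamini-Hochberg adjustment over 11063 genes. Every tested HOX gene was named, and other tested members with per-library values for the 12 highest and those called with a change of at least 0.5; of each pathway list, the 2 called members with the largest change were named. The members and lists were chosen with earlier results of these data known. The code was tested on simulated data. Alternatives were pseudocounts, filters, scalings, weights, the samples fitted, a replicate block and leaving out each library. Some members enter the counts but are not reported here by name. No nucleotide or protein sequences are printed.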

Additional observations from a re-analysis of the deposited data

Results flagged for a closer look

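For 13 of the 52 tested members the change at 72 h differed from the change at 48 h. The test was limma's comparison of 72 h with 48 h, which tests the difference itself. Of all tested genes 25.4% were called in that comparison, so the count of members was near the share of all genes. Of the 13 calls, 4 were kept in every setting in which the gene was tested. The difference was below zero for DLX5 (-0.73), PRRX2 (-0.65), TBX2 (-0.58), DLX2 (-0.50), PBX4 (-0.48), DLX1 (-0.46), HOXC6 (-0.42), DLX4 (-0.39), HOXB6 (-0.34), TCF21 (-0.29) and MSX2 (-0.27), and above zero for HOXA3 (0.35) and TBX3 (0.23). PRRX2 stands apart among them because it was called higher at 48 h and lower at 72 h.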

How the results depend on the processing

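No called change of a member reversed its direction in any setting, and 22 of 34 calls at 48 h, 24 of 34 at 72 h and 4 of 13 between 48 h and 72 h were kept in every setting in which the gene was tested. Leaving out 1 library at a time gave 26 to 32 members higher and 3 to 5 lower at 48 h, 19 to 27 and 5 to 8 at 72 h, 0 to 2 and 7 to 12 for 72 h against 48 h, and 30 to 38 in the F-test. For HOX genes it gave 10 to 14 higher and 0 lower at 48 h, 10 to 12 higher and 0 to 1 lower at 72 h, and 0 to 1 higher and 0 to 4 lower for 72 h against 48 h. With a mean FPKM of at least 5, which left 23 members and 7 HOX genes, 14 members were higher and 2 lower at 48 h, 13 and 4 at 72 h and 1 and 5 for 72 h against 48 h, 4 HOX genes were higher at each time against 0 h, 0 were higher and 1 lower at 72 h than at 48 h, and 17 members passed the F-test. At equal FPKM sums 9 HOX genes were higher at 48 h; in the same setting, and with equal sums over protein-coding genes, 7 members and 0 HOX genes were lower at 72 h than at 48 h. Without a filter 1 HOX gene was lower at 72 h than at 0 h, and for 72 h against 48 h 0 members were higher and 7 lower, with 0 HOX genes higher and 1 lower. For 72 h against 48 h, 1 member and 0 HOX genes were higher with a pseudocount of 0.1 or 0.5 and with library weights, and 0 and 0 with only the 6 libraries compared, where 1 HOX gene was lower. Except where the filter left fewer genes, the cause was not tested.

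The replicate numbers were not taken as pairs: same-numbered libraries deviated together with correlations of -0.0709 to 0.193, against -0.182 to 0.174 for other pairs, and not every library correlated best with its own number. With the replicate block 32 members were higher and 4 lower at 48 h, 27 and 9 at 72 h and 2 and 12 for 72 h against 48 h. Depth is unknown, so members near 1 FPKM carry an unknown counting error.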

Other observations

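Besides TWIST2 and FOXF2, several low HOX genes were highest in 0 h replicate 2 among the 0 h libraries, a set chosen after the values were seen. HOXA11 had 0.36, 0.93 and 0.38 FPKM at 0 h, HOXA2 0.11, 0.38 and 0.15, HOXC13 0.08, 0.32 and 0.08 and HOXA10 1.21, 1.97 and 1.21 in replicates 1, 2 and 3. TWIST2, FOXF2, HOXA2, HOXA10, HOXA11 and HOXC13 were also highest in replicate 2 among the 72 h libraries. At 48 h FOXF2, TWIST2, HOXA2, HOXA11 and HOXC13 were highest in replicate 3 and HOXA10 in replicate 1.

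Genes usually placed in the head and genes of the trunk and limb were measured in the same libraries. DLX2, SIX3 and ALX1 stood beside HOXC8, HOXC9, TBX5 and MEIS1, and whether single cells carry both sets cannot be told from bulk RNA. The reads of SIX3 are uncertain, as its annotated span overlaps that of another protein-coding gene.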
